A study of Mus musculus with 16 samples.

Results

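The genes described here are 10 genes by which astrocytes are commonly recognised, among them the glutamate transporters, of the 24062 genes in the count table. They were taken by symbol, by a rule that uses no measured value, and all 10 were found in both the count table and the FPKM table (fragments scaled to transcript length and sequencing depth). RNA was sequenced from whole brains, cerebellum included, of 16 single-housed female C57BL/6J mice killed on postnatal day (PND) 45, 4 per group, which the labels abbreviate by initials. WW mice had water only. For NW mice the bottles held 200 µg/ml nicotine, offered 22 h per day, alone for 6 days and then on through the last 4 days. Water-Ethanol mice had water in place of nicotine and drank 20% ethanol (v/v) by the drinking-in-the-dark procedure on the last 4 days, in sessions of 2 h and a final session of 4 h that ended with dissection. NE mice had both. The study reported that NE mice drank more ethanol than Water-Ethanol mice on the final day and had higher blood ethanol. Nicotine was removed before that final session, so NW and NE brains were taken after 4 h without it. The study names withdrawal as a possible source of the values of its nicotine group. No group carried a transgene, and each library came from 1 mouse.

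Astrocytes take up the glutamate that neurons release, turn it into glutamine and hand it back, so that their glutamate transporters and glutamine synthetase work as one cycle. Their connexins join neighbouring astrocytes into a network through gap junctions, and their water channel lines the endfeet that surround blood vessels. Their intermediate filament proteins are known to rise when astrocytes react to injury. In whole brain tissue, fewer astrocytes and less RNA per astrocyte cannot be told apart.

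The totals per library ran from 27100352 to 32880979 counts, and the raw counts of the 10 genes ran from 1326 to 128491 per mouse. WW replicate 21 and NW replicate 10 stood apart from the other 14 mice in 12 cerebellar neuron markers such as Gabra6, Cbln1 and Pcp2. The summed markers were 18182 and 23836 normalised counts in these 2 mice and 46006 to 54971 in the others. NW replicate 10 also had 3.90% of its counts on the ribosomal RNA gene Rn45s, against 0.274% to 1.37% elsewhere. Both mice are in groups without ethanol, so values that rest on them are given below with and without them.

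The start regions of 3 of the genes are printed. Aldh1l1 and Gja1 had the lowest ethanol effects of the members, and Vim had means above WW in both ethanol groups. Gfap, Aqp4, Slc1a2, Slc1a3 and Glul were also lower on average in both ethanol groups, and their windows are not printed. Each is the 250 bases before the RefSeq start, 5′ to 3′ on the gene's own strand, from the RefSeq table of build GRCm38.p6. Capitals mark matches on either strand to 4 motifs. These are the TATA box, searched as TATAAA, the box named for its letters CCAAT, the GC box with the letters GGGCGG, and the STAT site with the letters TTCNNNGAA. The matches in these windows do not overlap each other.
Aldh1l1, chr6:90550543-90550792, plus strand: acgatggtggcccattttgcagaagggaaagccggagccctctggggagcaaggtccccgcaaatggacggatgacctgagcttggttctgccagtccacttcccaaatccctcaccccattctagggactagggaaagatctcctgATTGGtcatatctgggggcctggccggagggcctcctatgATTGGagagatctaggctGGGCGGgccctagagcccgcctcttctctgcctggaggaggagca
Gja1, chr10:56377050-56377299, plus strand: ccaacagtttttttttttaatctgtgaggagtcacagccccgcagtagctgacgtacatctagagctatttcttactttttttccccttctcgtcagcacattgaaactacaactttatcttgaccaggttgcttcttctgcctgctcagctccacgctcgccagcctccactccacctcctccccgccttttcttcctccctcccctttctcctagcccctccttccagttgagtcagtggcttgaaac
Vim, chr2:13574061-13574310, plus strand: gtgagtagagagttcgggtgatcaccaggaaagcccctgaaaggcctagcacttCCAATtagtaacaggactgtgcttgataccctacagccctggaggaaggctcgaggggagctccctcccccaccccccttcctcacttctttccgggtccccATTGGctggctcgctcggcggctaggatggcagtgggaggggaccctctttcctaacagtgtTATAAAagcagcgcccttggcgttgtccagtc

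The Aldh1l1 window held 2 CCAAT boxes and 1 GC box, the Vim window 2 CCAAT boxes and 1 TATA box, and the Gja1 window none of the 4 motifs. Windows of 9 of the 10 genes were searched, without Aqp4. The Slc1a2 window (chr2:102706188-102706437) lies inside the span of that gene's listed exons, not before the first of them, and held none of the motifs. A CCAAT box was found in 5 of the 9 and in 33.8% of all 32851 windows of that length in the table. A GC box was found in 3 of the 9 against 32.7% of all windows, a TATA box in 2 of the 9 against 12.4%, and a STAT site in 1 of the 9 against 7.02%. These are matches of letters and do not show a bound site.

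The glutamine-forming enzyme was the most abundant of the 10 genes and the folate enzyme Aldh1l1 the least, and this order was nearly the same in every mouse. Glul, which encodes glutamine synthetase, had a mean level of 701 ± 37.2 FPKM (SD, n = 16 mice). Slc1a2, the main glutamate transporter of forebrain astrocytes, had 353 ± 17.7 FPKM, and Slc1a3, the transporter that is richest in the Bergmann glia of the cerebellum, had 191 ± 11.8 FPKM. S100b, a calcium-binding protein, followed at 114 ± 11.95 FPKM.

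Gja1, the main astrocyte connexin, had a mean level of 86.8 ± 5.84 FPKM and Gfap, the filament protein of astrocytes, 74.9 ± 4.97 FPKM. Aqp4, the water channel of the endfeet, had 51.3 ± 4.58 FPKM. Gjb6, the second astrocyte connexin, and Vim, a filament protein shared with vessel and meningeal cells, had 36.6 ± 3.39 and 36.2 ± 3.44 FPKM, and Aldh1l1 had 20.9 ± 2.03 FPKM. Each gene in this order was above the next in all 16 mice except Gjb6, which was above Vim in 10 of 16, so that the levels of these neighbours did not differ beyond their spread. With normalised counts per kilobase of the listed exons in place of FPKM, Aqp4 stood above Gfap in 12 of 16 mice, so the order of that pair depends on the transcript length used.

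**Figure D1:**
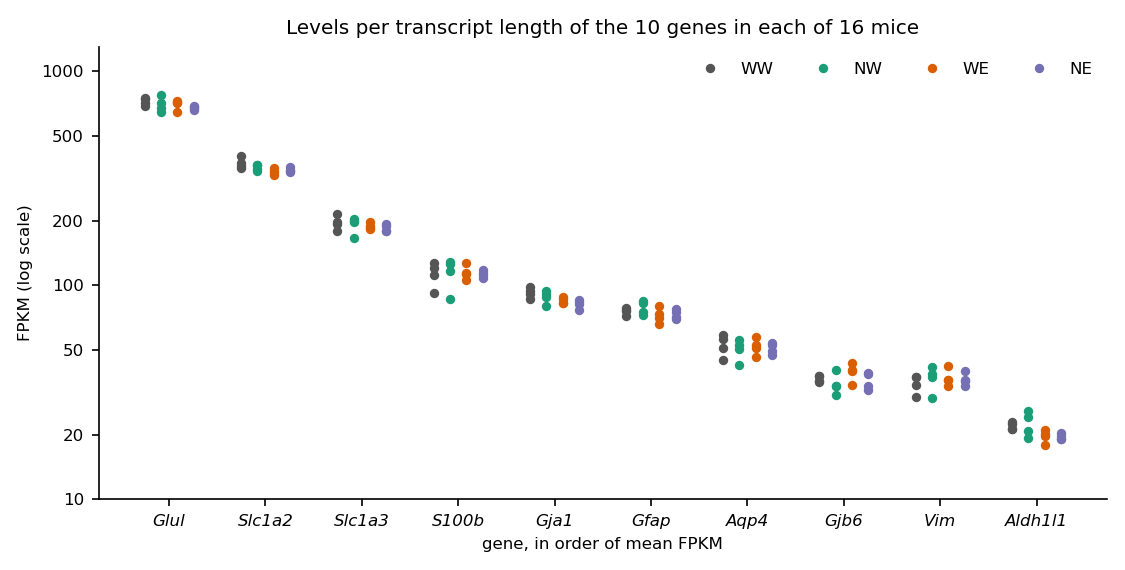
Level of each of the 10 genes in FPKM (log axis), 1 point per mouse, with the groups by their initials side by side. The levels span 20.9 FPKM for Aldh1l1 to 701 FPKM for Glul, and the differences between genes are far larger than those between groups.

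Nicotine alone, read 4 h after its removal, left the 10 genes within the spread between mice. In NW against WW, none of the 10 genes passed an adjusted p of 0.05 by edgeR's quasi-likelihood test, none had an unadjusted p under 0.05, and DESeq2 and limma called none. Of all 15344 genes tested in this comparison 0% were called and 8.44% had an unadjusted p under 0.05. The log2 fold changes of the 10 genes lay between -0.08 (Gjb6, adjusted p = 0.794) and 0.08 (Vim, adjusted p = 0.832), with a median of -0.04 against 0.01 over all genes tested. The 95% confidence intervals reached from -0.27 for Aqp4 to 0.29 for Vim. Those of Gfap, Slc1a2 and Gja1 were narrower, from -0.06 to 0.17, -0.18 to 0.06 and -0.19 to 0.06.

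Aldh1l1 and Gja1 had the lowest log2 fold changes of the members in NE and for the ethanol effect, while in Water-Ethanol Slc1a2 stood between them. Aldh1l1 encodes a folate enzyme that serves as a marker of astrocytes throughout the brain (chr6:90550848-90599171 in mm10, 23 exons in the count table). It was counted at 1824, 1947, 1974 and 1807 normalised counts in WW replicates 18, 19, 20 and 21. Water-Ethanol replicates 13, 14, 15 and 16 had 1729, 1807, 1527 and 1672. The values were 1735, 1663, 1701 and 1657 in NE replicates 2, 3, 4 and 5. The NE mice all lay below the WW mice, while the highest Water-Ethanol mouse met the lowest WW mouse, replicate 21. The other WW mice, from 1824 to 1974, lay above all Water-Ethanol mice. The NW mice spread widely, at 2203, 2093, 1690 and 1801 in replicates 7, 8, 10 and 11.

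The mean of Aldh1l1 differed from WW by -10.8% in Water-Ethanol and by -10.5% in NE. The log2 fold changes were -0.16 (SE 0.054, adjusted p = 0.140) and -0.16 (SE 0.042, adjusted p = 0.103), and neither passed by edgeR. Over all 16 mice, Aldh1l1 fell with ethanol by 0.19 on the log2 scale (SE 0.049, 95% interval -0.29 to -0.08, adjusted p = 0.0385), and it was the single member that passed. This ethanol effect is the mean of the differences Water-Ethanol minus WW and NE minus NW. All 8 ethanol mice were below the median of the 8 mice without ethanol, and 4 of the 8 were below all of them. The former also held for Slc1a2, Slc1a3 and Gja1, and the latter for Gfap. The share of all genes that do so was not counted. By edgeR, 4.5% of the 15592 genes tested were called for this effect and 1.56% were called lower, so that 1 of 10 members is near what the whole table gives. The call is narrow. Leaving out single mice gave adjusted p-values of 0.0107 to 0.0903, and 5 of 16 such fits kept it, those without WW replicate 18, WW replicate 21, NW replicate 10, NW replicate 11 or Water-Ethanol replicate 14. Without both WW replicate 21 and NW replicate 10 the value was -0.23 (adjusted p = 0.00843), and limma on FPKM gave adjusted p-values of 0.0604 and 0.0609.

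Gja1 (chr10:56377300-56390419, 2 exons) was counted at 7310, 8079, 8340 and 7641 normalised counts in WW replicates 18, 19, 20 and 21. The values were 7409, 7288, 6947 and 6949 in Water-Ethanol replicates 13, 14, 15 and 16, and at 6829, 7099, 6437 and 7249 in NE replicates 2, 3, 4 and 5. All NE mice lay below all WW mice, and 3 of 4 Water-Ethanol mice did. The mean differed from WW by -12.0% in NE (log2 fold change -0.18, SE 0.049, adjusted p = 0.109) and by -8.85% in Water-Ethanol (log2 fold change -0.13, SE 0.045, adjusted p = 0.149). The ethanol effect over 16 mice was -0.13 (SE 0.037, adjusted p = 0.0562) and just missed the threshold. It was -0.15 (adjusted p = 0.0185) without WW replicate 21 and NW replicate 10, and passed there, with the cerebellar markers as a covariate (adjusted p = 0.0224) and by DESeq2 (adjusted p = 0.0217).

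Gjb6, the partner connexin, went the other way in Water-Ethanol. Its WW mice had 2000, 2155, 2061 and 2132 normalised counts in replicates 18, 19, 20 and 21, and its Water-Ethanol mice had 1934, 2266, 2449 and 2222 in replicates 13, 14, 15 and 16. In Water-Ethanol 3 of 4 mice were above all WW mice and the remaining mouse was below all of them, and the log2 fold change was 0.09 (SE 0.061, adjusted p = 0.438). In NE it was -0.03 (SE 0.058, adjusted p = 0.804). The ratio of Gja1 to Gjb6 in FPKM was 2.53 ± 0.151 for WW and 2.57 ± 0.253 for NW, and 2.19 ± 0.285 for Water-Ethanol and 2.29 ± 0.307 for NE (SD, n = 4), with groups that overlapped and no test of the ratio.

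**Figure D2:**
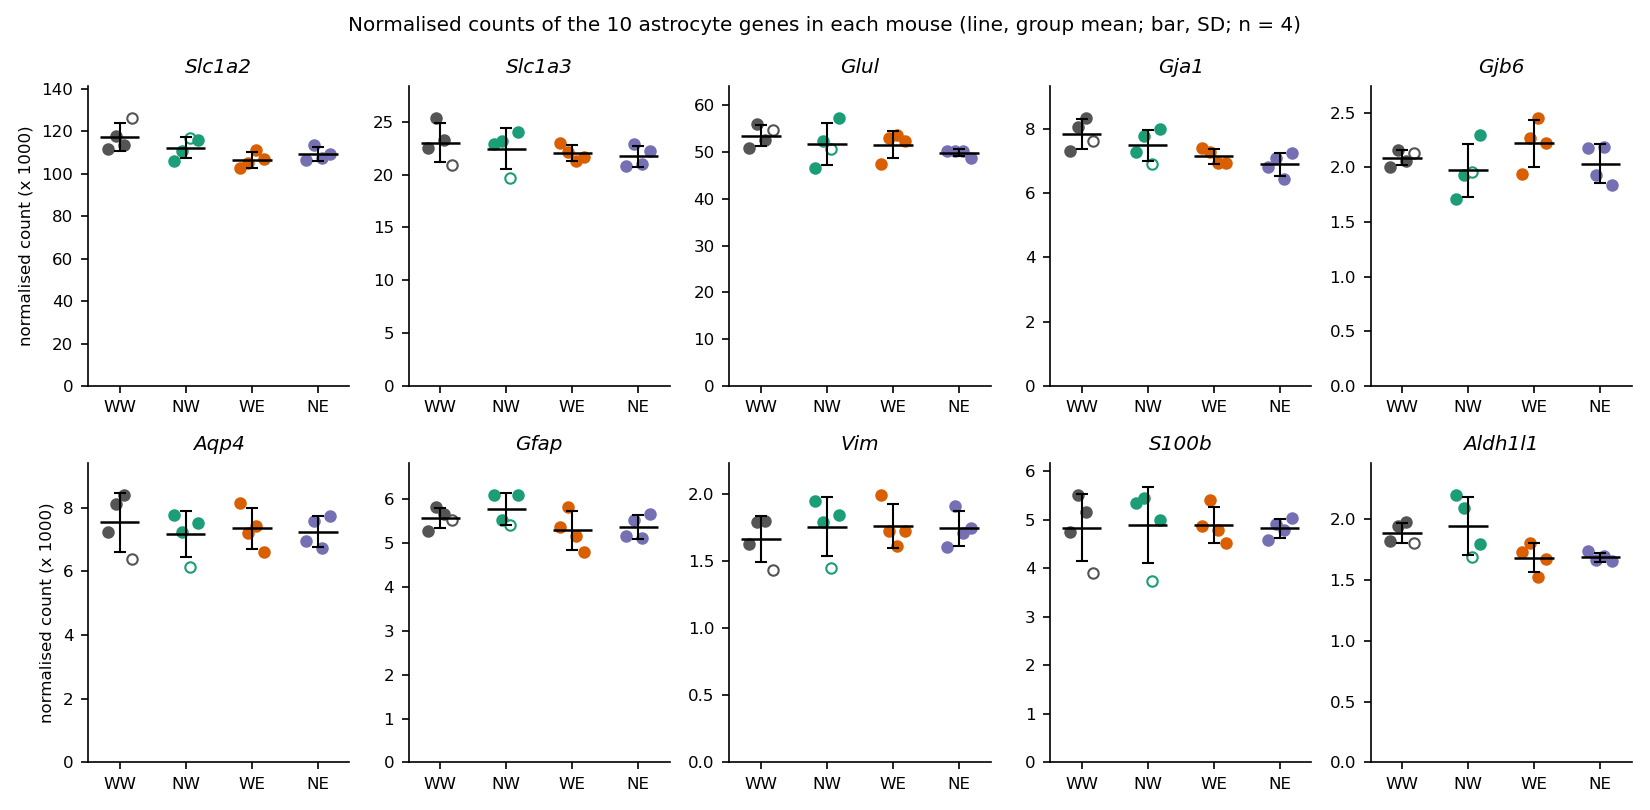
Normalised counts, scaled as the axis states, for each of the 10 genes, 1 point per mouse by group, with the group mean (line) and SD (bar, n = 4). Open points are WW replicate 21 and NW replicate 10, which are low in S100b, Vim, Slc1a3 and Aqp4 and high in Slc1a2. Aldh1l1 and Gja1 have lower means than WW in both ethanol groups, as do Gfap, Aqp4, Slc1a2, Slc1a3 and Glul.

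Among the glutamate genes, Slc1a2 separated the Water-Ethanol mice from the WW mice. Slc1a2 (chr2:102658683-102790784, 12 exons) was counted at 111714, 117892, 113677 and 126280 normalised counts in WW replicates 18, 19, 20 and 21, and at 102825, 104909, 111346 and 106801 in Water-Ethanol replicates 13, 14, 15 and 16. In NE replicates 2, 3, 4 and 5 it was counted at 106335, 113634, 107593 and 109588. Every Water-Ethanol mouse was below every WW mouse, with 111346 and 111714 as the nearest pair, and 3 of 4 NE mice were below all WW mice. The mean differed by -9.3% in Water-Ethanol (exact permutation test, two-sided p = 0.0286, the smallest that 4 against 4 mice can give). The log2 fold change was -0.14 (SE 0.043, adjusted p = 0.120) in Water-Ethanol and -0.10 (SE 0.043, adjusted p = 0.253) in NE, and neither passed by edgeR. DESeq2 gave an adjusted p of 0.0487 for the Water-Ethanol difference. The highest value of all mice was that of WW replicate 21. The ethanol effect was -0.09 (SE 0.032, adjusted p = 0.106), -0.06 (adjusted p = 0.181) without WW replicate 21 and NW replicate 10, and past the threshold by DESeq2 (adjusted p = 0.0493).

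Slc1a3, the other glutamate transporter (chr15:8634124-8710807, 10 exons), had means of 23018 ± 1852 normalised counts for the WW mice and 22463 ± 1905 for the NW mice (SD, n = 4). The means were 22025 ± 734 for the Water-Ethanol mice and 21720 ± 1013 for the NE mice. Its log2 fold changes were -0.06 in Water-Ethanol (SE 0.053, adjusted p = 0.559) and -0.08 in NE (SE 0.056, adjusted p = 0.486). All 8 ethanol mice were below the median of the mice without ethanol, but NW replicate 10, at 19689, was below all 8 and WW replicate 21, at 20879, below all but NE replicate 2. Without these 2 mice the ethanol effect went from -0.06 (adjusted p = 0.454) to -0.11 (adjusted p = 0.0543).

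Glul (chr1:153899929-153909723, 7 exons, the first of which overlaps the microRNA gene Mir8114 on the same strand) was counted at 50844, 56126, 52545 and 54678 normalised counts in WW replicates 18, 19, 20 and 21. In NE replicates 2, 3, 4 and 5 it was counted at 50348, 50324, 50181 and 48735. All NE mice were below all WW mice, with a difference of means of -6.82% (log2 fold change -0.10, SE 0.038, adjusted p = 0.209). The exact permutation test gave a two-sided p of 0.0286, the smallest that 4 against 4 mice can give. The NW mice, from 46608 to 57288, spanned all values of NE and WW. The Water-Ethanol mice, from 47408 to 53686, overlapped the WW mice, and the log2 fold change was -0.05 (SE 0.046, adjusted p = 0.587).

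Counted together, 3 of the 10 members lay wholly below WW in NE (Aldh1l1, Gja1 and Glul), where 5.51% of all genes tested did, and 1 member did in Water-Ethanol (Slc1a2), where 5.68% of all genes did. Without WW replicate 21, Aldh1l1 also lay wholly below WW in Water-Ethanol, and the share of all genes was not counted there. Log2 fold changes below 0 were found for 6 of 10 members in NW, 7 in Water-Ethanol, 9 in NE and 8 for the ethanol effect, against 46.4%, 49.4%, 48.6% and 49.2% of all genes. The medians over the members were -0.06 in Water-Ethanol, -0.07 in NE and -0.05 for the ethanol effect. No member lay wholly above WW in any comparison. In NW no member lay wholly apart from WW, where 5.96% of all genes did in either direction. By adjusted p none of the 10 passed in Water-Ethanol, where 0.457% of 15323 genes were called, and none in NE, where 0.313% of 15313 genes were called. An unadjusted p under 0.05 was reached by 3 of 10 in Water-Ethanol (19.3% of all genes) and 4 of 10 in NE (17.5% of all genes), and by 4 of 10 for the ethanol effect (22.9% of all genes). The 3 comparisons use the same 4 WW mice and are not independent of each other.

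**Figure D3:**
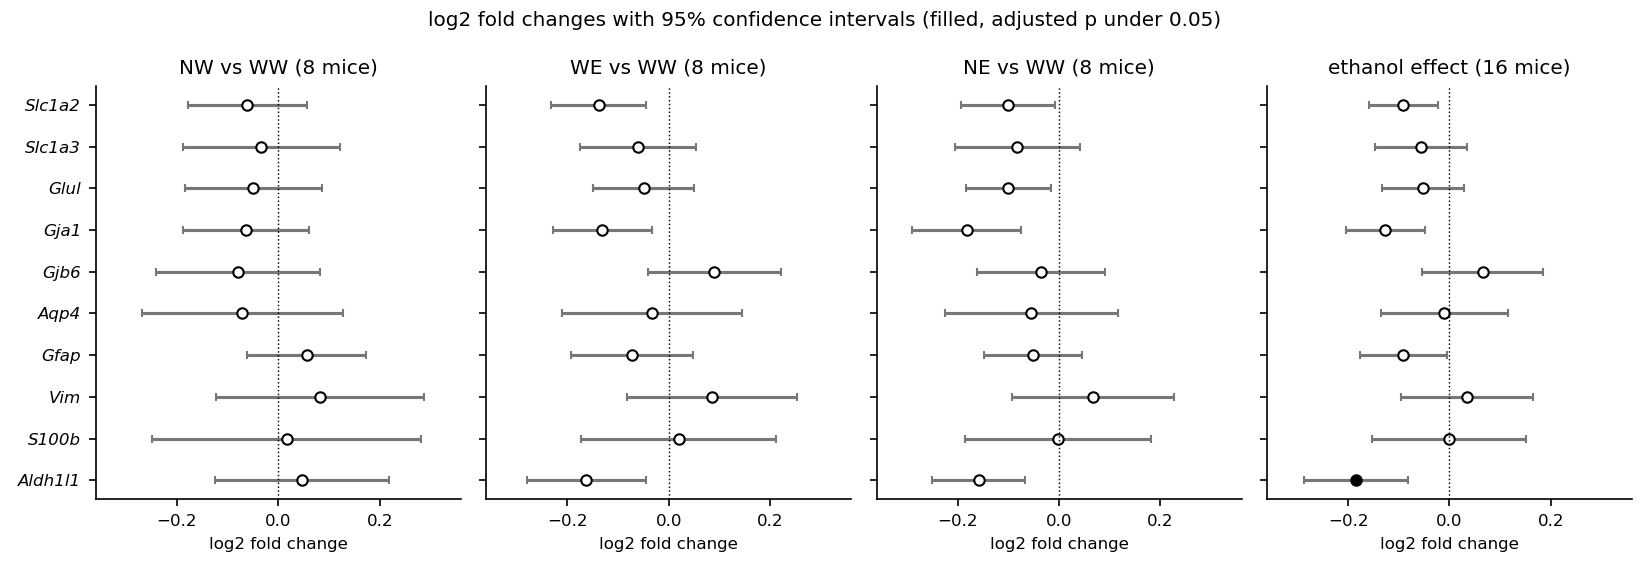
log2 fold change of each gene with its 95% confidence interval, in each treated group against WW and for the ethanol effect over 16 mice. Filled points passed an adjusted p of 0.05: only Aldh1l1, at -0.19 for the ethanol effect.

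The filament proteins, the water channel and S100b gave no call, and the values of Vim, Aqp4 and S100b moved with the 2 mice that stood apart. The group means of Gfap (chr11:102887336-102897200, 10 exons) were 5568 ± 231 normalised counts for WW and 5781 ± 368 for NW (SD, n = 4). They were 5285 ± 434 for Water-Ethanol and 5368 ± 277 for NE. Its ethanol effect was -0.09 (SE 0.041, adjusted p = 0.190). Vim (chr2:13574311-13582826, 9 exons) had means of 1663 ± 171, 1758 ± 217, 1763 ± 163 and 1743 ± 127 in the same order, and its ethanol effect of 0.03 (SE 0.062, adjusted p = 0.779) became -0.04 without WW replicate 21 and NW replicate 10.

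Aqp4 (chr18:15389394-15403684, 5 exons) had means of 7542 ± 920, 7171 ± 714, 7354 ± 646 and 7254 ± 484 normalised counts in the same order. Its ethanol effect was -0.01 (SE 0.060, adjusted p = 0.938) with all mice and -0.08 (adjusted p = 0.292) without the same 2 mice. S100b (chr10:76253836-76261319, 3 exons), which oligodendrocytes also express, had means of 4838 ± 694, 4887 ± 784, 4896 ± 374 and 4828 ± 196. Its ethanol effect went from -0.0007 (SE 0.072, adjusted p = 0.998) to -0.10 (adjusted p = 0.144) without them.

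No joint effect of nicotine and ethanol on these genes was detectable beyond the spread between mice. The study's NE mice drank more ethanol than its Water-Ethanol mice, so nicotine and the amount of ethanol cannot be told apart between those groups. In the nicotine effect over 16 mice, the mean of NW minus WW and NE minus Water-Ethanol, none of the 10 members was called by edgeR, DESeq2 or limma, and none had an unadjusted p under 0.05 (0% of 15592 genes called, 10.3% with an unadjusted p under 0.05). The values lay between -0.10 (Gjb6, SE 0.057, adjusted p = 0.567) and 0.04 (Gfap, SE 0.041, adjusted p = 0.810). In the interaction the 10 members lay between -0.10 (Vim, SE 0.125, adjusted p = 0.916) and 0.10 (Slc1a2, SE 0.064, adjusted p = 0.817). None was called there by any of the 3 tools or had an unadjusted p under 0.05 (0% of all genes called, 6.76% with an unadjusted p under 0.05).

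Markers of other cell types and regions were read in the same comparisons. All 12 cerebellar neuron markers had log2 fold changes above 0 in both ethanol groups (50.6% of all genes in Water-Ethanol and 51.4% in NE), with summed levels of 18182 to 54971 normalised counts in WW, 46006 to 51508 in Water-Ethanol and 46895 to 51996 in NE. None of the 12 was called. Without WW replicate 21 the WW sums were 48125 to 54971, which overlap both ethanol groups and reach above them, so the direction of the summed level rests on that mouse. With these markers as a covariate the ethanol effect of Aldh1l1 was -0.21 (adjusted p = 0.0118). All 8 oligodendrocyte markers had lower estimates in both ethanol groups (49.4% of all genes in Water-Ethanol and 48.6% in NE). In each group 5 of the 8 had an unadjusted p under 0.05 (19.3% and 17.5% of all genes), none called. Their summed levels were 217386 to 260722 in WW, 200830 to 232489 in Water-Ethanol and 212852 to 244450 in NE. For the ethanol effect Cnp (-0.21, adjusted p = 0.0264) and Mal (-0.19, adjusted p = 0.0387) were called, where 1.56% of all genes were called lower.

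All 7 microglia markers also had lower estimates in both ethanol groups (49.4% of all genes in Water-Ethanol and 48.6% in NE). An unadjusted p under 0.05 was reached by 5 in Water-Ethanol (19.3% of all genes) and 4 in NE (17.5%), none called. The 7 markers had summed levels of 8271 to 10513 normalised counts in WW, 8034 to 8560 in Water-Ethanol and 7331 to 8940 in NE. Among them C1qa (-0.22, adjusted p = 0.0386) and Cx3cr1 (-0.20, adjusted p = 0.0387) were called for the ethanol effect, where 1.56% of all genes were called lower. The 7 meningeal markers had lower estimates in NE in all cases (48.6% of all genes) and in Water-Ethanol in 6 (49.4%). Their summed levels were 3882 to 6706 in WW, 3364 to 4515 in Water-Ethanol and 3570 to 3913 in NE. An unadjusted p under 0.05 was reached by all 7 in NE (17.5% of all genes) and 3 in Water-Ethanol (19.3%), none called. The summed 6 endothelial markers lay wholly below WW (7960 to 8275) in Water-Ethanol (7089 to 7839) and NE (7270 to 7954). The summed 5 olfactory bulb markers lay wholly below WW (2395 to 2469) in NE (1303 to 2287) and NW (1417 to 2330) and overlapped it in Water-Ethanol (1161 to 2556). In NE all 5 had log2 fold changes below 0 (48.6% of all genes), none called and 4 with an unadjusted p under 0.05 (17.5% of all genes). How often sums of other gene lists lie wholly below WW was not counted. No marker of these 6 lists was at 0 in all mice. Without WW replicate 21 and NW replicate 10, Cnp had -0.24 (adjusted p = 0.0157), Mal -0.18 (adjusted p = 0.0566), C1qa -0.17 (adjusted p = 0.0635) and Cx3cr1 -0.15 (adjusted p = 0.053), so the last 3 missed the threshold with the same direction. Leaving out single mice kept the call of Cnp in 9 of 16 fits, C1qa in 7, Mal in 6 and Cx3cr1 in 5. Of 8 neuron markers, 6 had log2 fold changes below 0 in Water-Ethanol (49.4% of all genes) and 7 in NE (48.6%). All 3 oligodendrocyte precursor markers were below 0 in both. Of 4 Bergmann glia markers tested, 2 were below 0 and 2 above in each. Of 5 ependymal markers, 4 were above 0 in Water-Ethanol and 5 in NE. None of these was called in either group. The part of neuronal, precursor, oligodendrocyte, microglial, meningeal, endothelial and olfactory bulb RNA in the values of the 10 genes was not tested.

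Genes of related functions were taken from lists. Of 30 other astrocyte genes, all tested, 1 was called for the ethanol effect, against 4.5% of all genes, and 23 had estimates below 0, against 49.2% of all genes, with a median of -0.02, against a median of 0.0021 over all genes tested and -0.05 over the members. The called gene was Mfge8, a secreted bridging protein of phagocytosis that astrocytes express, which fell by 0.16 on the log2 scale (SE 0.041, adjusted p = 0.0314). Its values were 3069, 3458, 3335 and 3716 normalised counts in WW replicates 18, 19, 20 and 21, 3103, 3116, 2942 and 3027 in Water-Ethanol replicates 13, 14, 15 and 16, and 2816, 3378, 2995 and 3072 in NE replicates 2, 3, 4 and 5. Water-Ethanol and NE each overlapped WW, and the call held in 9 of 16 fits without 1 mouse. Slc6a11, a GABA transporter of astrocytes, had -0.12 (adjusted p = 0.0594) and Fgfr3, a growth factor receptor, 0.12 (adjusted p = 0.141).

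Of 20 further genes of glutamate uptake and the glutamine cycle, 19 were tested and 1 was called, in Water-Ethanol against WW (0.457% of all genes called) and for the ethanol effect (4.5%). Slc38a2, a neutral amino acid transporter that carries glutamine, rose in Water-Ethanol against WW (log2 fold change 0.49, SE 0.087, adjusted p = 0.0424) and with ethanol over all mice (0.51, SE 0.098, adjusted p = 0.00851). It was counted at 9577, 8563, 7726 and 8439 normalised counts in WW replicates 18, 19, 20 and 21 and at 11138, 11427, 14564 and 11003 in Water-Ethanol replicates 13, 14, 15 and 16. In NE replicates 2, 3, 4 and 5 it was counted at 12006, 10885, 12699 and 9376 (log2 fold change 0.39, adjusted p = 0.0735). The Water-Ethanol mice all lay above the WW mice, and 1 NE mouse overlapped them. The call against WW held in 2 of 8 fits without 1 mouse (adjusted p from 0.0176 to 0.145), and that for the ethanol effect held in 16 of 16. Slc17a8, a vesicular glutamate transporter, and Slc38a5, another glutamine carrier, had ethanol effects of -0.15 (adjusted p = 0.227) and -0.27 (adjusted p = 0.177).

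Of 15 genes of gap junctions, water and potassium buffering, all tested, none was called in any of the 6 comparisons by edgeR. Those with the largest differences in Water-Ethanol were the connexins Gjb2 (-0.29, SE 0.096, adjusted p = 0.136) and Gjc1 (0.19, SE 0.092, adjusted p = 0.271).

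Of 21 genes of astrocyte reactivity and intermediate filaments, 18 were tested for the ethanol effect and 1 was called, near the 4.5% of all genes. Nes, the filament protein nestin of progenitor and endothelial cells, rose by 0.43 (SE 0.077, adjusted p = 0.0064). It was counted at 448, 628, 523 and 659 normalised counts in WW replicates 18, 19, 20 and 21 and at 647, 532, 616 and 529 in NW replicates 7, 8, 10 and 11. The values were 878, 728, 808 and 667 in Water-Ethanol replicates 13, 14, 15 and 16 and at 861, 713, 735 and 763 in NE replicates 2, 3, 4 and 5. All 8 ethanol mice were above all 8 mice without ethanol, though the share of all genes that separate so was not counted. The call held in each of 16 fits without 1 mouse. Nes differed from its partner filaments Gfap and Vim in this separation and call, though that difference was not tested. Steap4 and Timp1, which are known to rise in reactive astrocytes, had Water-Ethanol values of -0.26 (SE 0.266, adjusted p = 0.626) and 0.27 (SE 0.388, adjusted p = 0.741). Of the 6 endothelial markers 1 was called for the ethanol effect (4.5% of all genes), Slco1a4 (-0.22, adjusted p = 0.00481). That list had 4 estimates below 0, 2 above and a median of -0.07. Of the 5 choroid plexus markers 1 was called for this effect (4.5% of all genes), Kcnj13 (0.57, adjusted p = 8.4e-05). The choroid plexus list had 4 estimates above 0, 1 below and a median of 0.09. Kcnj13 was also called against WW in Water-Ethanol (0.457% of all genes) and in NE (0.313%), and Slco1a4 in NE. Without 1 mouse, Kcnj13 kept these calls in 2 of 8 and 1 of 8 fits, and Slco1a4 in 2 of 8. For the ethanol effect both kept the call in 16 of 16.

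How the 10 genes varied together over mice was read with and without WW replicate 21 and NW replicate 10. With group means removed, 15 of 45 pairs passed a permutation test of Pearson's r over all 16 mice (adjusted p under 0.05 over 45 pairs, 14 with a positive and 1 with a negative r). Since those 2 mice form a cluster of their own, the correlations are given for the other 14 mice, where 1 of 45 pairs passed. That pair was Glul and Gjb6 (r = 0.877, permutation p = 0.00029, adjusted p = 0.013, and Spearman's rho = 0.824, permutation p = 0.00151, adjusted p = 0.0679). Without the 2 mice farthest from the median r was 0.774.

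Fewer passes among fewer mice do not show that the other pairs stopped varying together. In the 14 mice r was 0.72 for Gfap and S100b, 0.69 for Gfap and Aqp4, 0.695 for Slc1a3 and Gja1, 0.68 for Aqp4 and Gja1 and 0.59 for Gfap and Slc1a3 (adjusted p = 0.165 by permutation for each). Without the 2 mice farthest from the median it was 0.486, 0.801, 0.754, 0.687 and 0.721 in the same order. Slc1a2 with Glul (r = 0.80, adjusted p = 0.165 by permutation) and Slc1a3 with Vim (r = 0.72, adjusted p = 0.165) did not pass in the 14 mice. Slc1a2 and Aldh1l1 had r = -0.70 (adjusted p = 0.165 by permutation), so that the mice with more of the one had less of the other without the relation passing. Their r was -0.42 without the 2 mice farthest from the median. Gja1 and Gjb6, the paired connexins, had r = -0.06 (adjusted p = 0.961 by permutation).

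**Figure D4:**
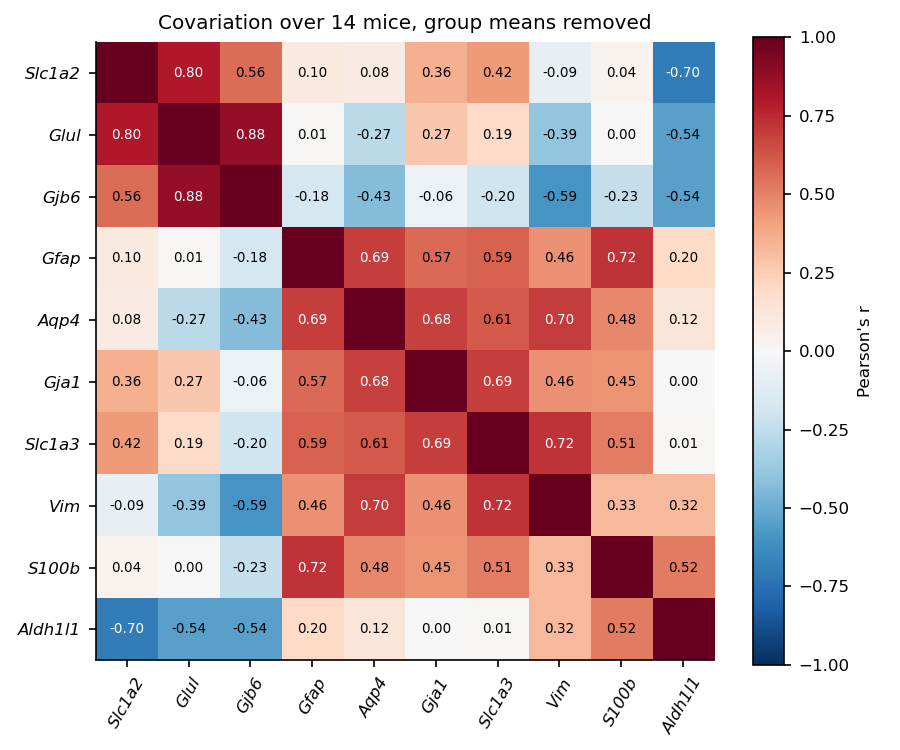
Pearson's r for each pair of the 10 genes over 14 mice, with group means removed and WW replicate 21 and NW replicate 10 left out (red positive, blue negative). Glul and Gjb6, at 0.88, form the one pair that passed, and Slc1a2 and Aldh1l1 have the lowest value, -0.70.

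The 2 mice that stood apart were low in several members. S100b was counted at 3910 normalised counts in WW replicate 21 and 3747 in NW replicate 10, which differed by -24.0% and -28.9% from the mean of the other mice of their groups. The same difference was -17.4% and -22.3% for Vim, -19.5% and -18.1% for Aqp4 and -12.0% and -15.8% for Slc1a3, each below all others of the group. It was 10.4% and 5.4% for Slc1a2, above all others of the group. Aldh1l1 was also the lowest of its group in both, by -5.7% and -16.8%. Gfap, Gja1, Gjb6 and Glul in WW replicate 21 lay inside the range of the other WW mice, as did Gjb6 and Glul of NW replicate 10 among the NW mice. Gja1 (-10.0%) and Gfap (-8.4%) of NW replicate 10 were below all other NW mice. Within the 14 mice none of 30 relations between the 10 genes and the cerebellar, meningeal and Bergmann glia marker scores passed a permutation test (smallest adjusted p = 0.169 for Pearson's r and 0.147 for Spearman's rho). With the Bergmann glia score r ran from 0.604 (Slc1a3) to 0.664 (Aqp4) for Gfap, Aqp4, Slc1a3, Aldh1l1, Gja1, S100b and Vim. It was -0.664 for Gjb6, -0.406 for Glul and -0.316 for Slc1a2, so not passing does not show that no relation exists.

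**Figure D5:**
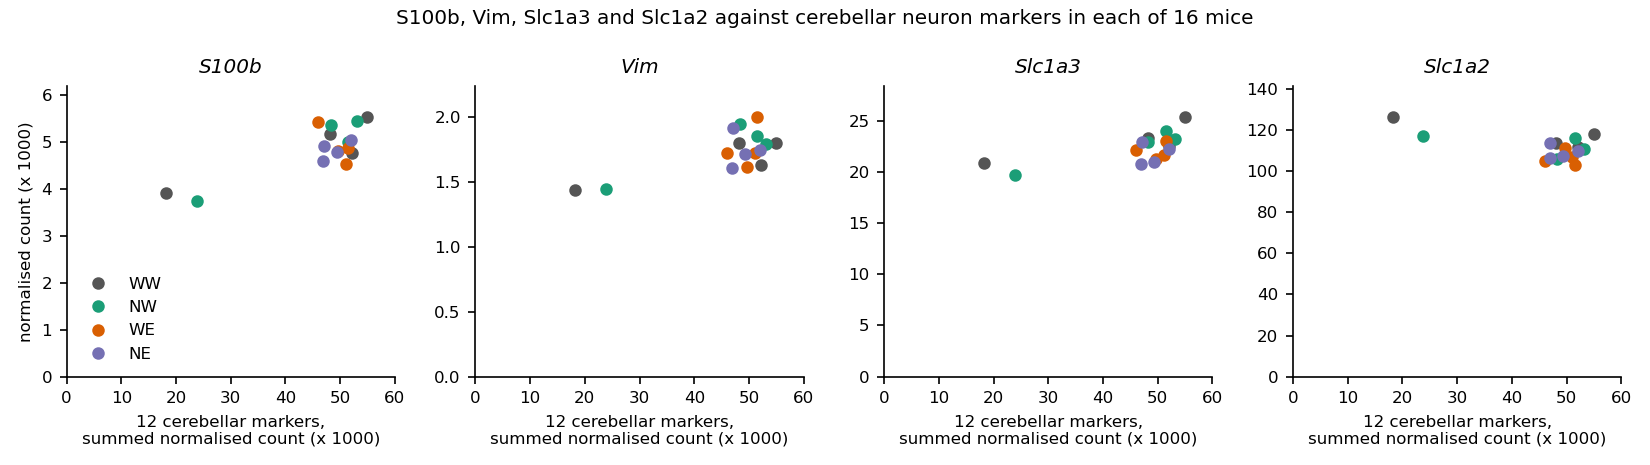
S100b, Vim, Slc1a3 and Slc1a2 (normalised counts, vertical axis) against the summed normalised counts of 12 cerebellar neuron markers (horizontal axis), both scaled as the axes state, 1 point per mouse. WW replicate 21 and NW replicate 10 sit at 18182 and 23836 summed counts, away from the other 14 mice.

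The gene whose pattern over all 16 mice was most like that of each member, out of 15592 genes with group means removed, is given as a description without a test, and the likeness includes the 2 mice that stood apart. For the glutamate genes it was Drd1a for Slc1a2 (r = 0.927), Ehd1 for Slc1a3 (r = 0.943) and Plekha3 for Glul (r = 0.90). It was Taldo1 for Gja1 (r = 0.88), Smox for Gjb6 (r = 0.925) and Ctnna3 for Aqp4 (r = 0.929). For the remaining genes it was Pepd for Gfap (r = 0.863), Tst for Vim (r = 0.925), Fndc5 for S100b (r = 0.956) and Dpm3 for Aldh1l1 (r = 0.926). None of the 10 was the nearest gene of another.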

How the data were processed

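RNA-seq counts and FPKM of whole brain from 16 female mice were used. Per the labels and the study's methods, libraries were made with a TruSeq kit, read as single ends on an Illumina HiSeq and trimmed with Trimmomatic (version 0.32), and aligned to mm10 with TopHat2. The deposited count table holds whole-number counts per gene with exon coordinates; the counting program and its strand setting are not given in the sources used here. The FPKM table was made by the authors with Cufflinks and Cuffdiff; FPKM are scaled to depth and length. The labels name an unstranded kit and the methods a stranded one.

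Groups came from the group entry in each sample's labels, and the sample titles served to match values to samples. Nothing was pooled. The rule for the members uses no measured value, but the members and all gene lists were chosen with earlier results of these data known. No p is therefore given for a list, and all 10 members are described in every comparison. Of other lists, genes with an adjusted p under 0.05 in any comparison are named and, outside the marker lists, the 3 with the largest Water-Ethanol difference from WW, of which 1 is not reported here.

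Counts were filtered with edgeR's filterByExpr, scaled by TMM and tested by the quasi-likelihood test (edgeR 4.0.16, R 4.3.3), with Benjamini-Hochberg adjustment over all genes tested. The study's Cuffdiff test was replaced because the tables hold counts. Treated groups were compared with WW on 8 mice, and the ethanol effect, nicotine effect and interaction were fitted on 16. The fits were tested on simulated data with 200 changed genes. Normalised counts are counts divided by TMM-scaled library size, times the mean size. Confidence intervals are 95%. Single genes were also compared by exact permutation of 4 against 4 mice (70 arrangements), and covariation by 100000 permutations within groups. Promoter windows came from RefSeq on GRCm38.p6. Alternatives were RLE factors, DESeq2 1.42.0, no filter, limma 3.58.1 on log2(FPKM + 1) or log2(FPKM + 0.1) of genes at 1 FPKM or more in at least 4 mice, cerebellar marker and GC adjustments, a fit of all mice and leaving out mice. Leaving out WW replicate 21 with NW replicate 10, and the relations with marker scores, were chosen after seeing the data. Replicate mice were separate animals.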

Additional observations from a re-analysis of the deposited data

Results flagged for a closer look

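Glul in NE replicate 5 lay far from the other mice of its group: it was counted at 48735 normalised counts, against 50181 to 50348 in the other 3, and the gap to its nearest neighbour was 0.896 of the group's whole range, above Dixon's limit for 4 samples. It was the single one of 40 groups of member values to do so, and chance alone flags about 1 in 20. The cerebellar marker score, the mean centred log2 normalised count of 12 markers, was flagged in the same way in 2 of 4 groups: at -1.36 in WW replicate 21 against 0.09 to 0.25 in the other WW mice (gap 0.901 of the range), and at -0.94 in NW replicate 10 against 0.12 to 0.21 (gap 0.923 of the range).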

How the results depend on the processing

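The number of members called moved as follows. In Water-Ethanol against WW, DESeq2 called 1 member in place of 0 (Slc1a2), and in NE against WW it called 2 (Aldh1l1 and Gja1). For the ethanol effect, where edgeR called 1, DESeq2 called 3, both limma fits 0, the cerebellar covariate 2, leaving out WW replicate 21 together with NW replicate 10 called 2, and leaving out single mice 0 to 2 (Slc1a2 in place of Aldh1l1 without NW replicate 7, Gja1 in its place without NE replicate 5, 0 without WW replicate 19 or 20, NW replicate 8, Water-Ethanol replicate 13, 15 or 16, or NE replicate 2, 3 or 4, and 2 without WW replicate 18 or NW replicate 10). The pairs whose r passed went from 15 to 1 in the 14 mice, though r of several stayed large there, such as 0.721 for Gfap and S100b and -0.702 for Slc1a2 and Aldh1l1. Without the 2 mice farthest from the median these were 0.486 and -0.42, while r of Gfap and Aqp4 was 0.801. No other setting moved the number of members called. The direction of Aldh1l1, Gja1, Slc1a2 and Glul in both ethanol groups held in every setting run.

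Of 1210 refits of the 60 member values 103 changed sign, none with an adjusted p under 0.05, and the largest value with a changed sign was 0.071 in size. With the cerebellar covariate S100b became -0.017 in NW and -0.057 in Water-Ethanol, and Vim -0.027 for the ethanol effect (-0.040 without the 2 mice that stood apart). With GC offsets Slc1a3 became 0.012 and Aldh1l1 -0.0024 in NW, and S100b 0.018 in NE and 0.0065 for the ethanol effect. With limma at either pseudocount S100b became 0.013 in NE and 0.019 for the ethanol effect, and Aqp4 0.0002 and 0.0003. Leaving out single mice gave, in NW, -0.076 to 0.019 for Slc1a3, -0.071 to 0.116 for S100b and -0.021 to 0.10 for Aldh1l1. It gave, in Water-Ethanol, -0.106 to 0.023 for Aqp4 and -0.069 to 0.090 for S100b. In NE it gave -0.128 to 0.0026 for Aqp4, -0.092 to 0.069 for S100b and -0.073 to 0.0076 for Gjb6. For the ethanol effect it gave -0.046 to 0.018 for Aqp4, -0.055 to 0.035 for S100b and -0.0068 to 0.061 for Vim.

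Over all genes, the calls in Water-Ethanol against WW were 70 by edgeR, 605 by DESeq2, 143 without a filter, 0 by limma, 755 with the cerebellar covariate, 43 with GC offsets, 28 in the fit of all mice and 0 to 797 without single mice (797 without WW replicate 21). In NE they were 48 by edgeR, 508 by DESeq2, 24 and 25 by limma, 352 with the covariate, 13 with GC offsets and 0 to 283 without single mice (283 without WW replicate 21). In NW they were 0 by edgeR, 121 by DESeq2 and 112 in the fit of all mice. For the ethanol effect they were 702, 1073 by DESeq2, 1138 with the covariate, 1061 without the 2 mice and 280 to 899 without single mice, and for the nicotine effect 0, 98 by DESeq2 and 0 to 49. The causes were not tested. No paired analysis was possible because the replicate numbers are unique to each mouse.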
